A study of Mus musculus with 39 samples.

Results

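The Mediator complex was examined here through its 33 protein-coding genes in the mouse, out of 45232 gene identifiers in the count files. Members were chosen by name: every protein-coding gene called Med followed by a number, with or without a final l, together with Cdk8, Cdk19 and Ccnc. The family was taken up because Med19 differed between juvenile diets in quadriceps in these same libraries. That difference is therefore given as a description without a test, and the question was whether the other subunits moved with it. Reads were counted in 39 libraries from male C57BL/6J mice killed at 22 weeks of age, 19 labelled epididymal white adipose tissue (eWAT) and 20 labelled quadriceps muscle. All mice ate chow until week 6, took a high-fat diet (HFD, 45% of calories from fat) or a control diet (CD, 10%) until week 7, returned to chow until week 10, and then all received the same HFD, so the controls too were fat-fed as adults. Part of each diet arm was fasted for 16 h before death. The eWAT groups held 5 libraries from juvenile-HFD fasted, 6 from CD fasted, 4 from HFD fed and 4 from CD fed mice, and the quadriceps groups held 6, 6, 4 and 4 in that order. The labels do not say that each library came from a separate mouse, so p-values measure the spread between libraries, part of which may be technical.

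Mediator is a multi-subunit coactivator that carries signals from DNA-bound transcription factors to RNA polymerase II at promoters. Its head and middle modules contact the polymerase, its tail contacts activators, and Med14 forms the backbone that joins them. A separable kinase module made of Cdk8 or Cdk19, cyclin C (Ccnc), Med12 or Med12l and Med13 or Med13l binds the core reversibly and hinders its contact with the polymerase. The members comprised 7 head genes, 9 middle genes including Med19, Med14, 9 tail genes and 7 genes of the kinase module.

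The sequences upstream of 3 members are shown because their transcripts behaved differently in muscle: Med19 was lower in fasted mice and differed by juvenile diet, Med28 was lower in fasted mice and Med13l was higher in them. Each line gives the 250 bases before the annotated start from RefSeq (GRCm38.p6), 5′ to 3′ along the gene, and capitals mark the letters CCAAT or their reverse complement ATTGG.
Med19 (chr2:84678152-84678401, plus strand): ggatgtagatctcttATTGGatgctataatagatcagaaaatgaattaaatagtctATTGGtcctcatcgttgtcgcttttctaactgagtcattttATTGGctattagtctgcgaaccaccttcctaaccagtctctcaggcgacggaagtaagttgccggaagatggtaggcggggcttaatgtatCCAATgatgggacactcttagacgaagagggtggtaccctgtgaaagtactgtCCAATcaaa
Med28 (chr5:45519979-45520228, plus strand): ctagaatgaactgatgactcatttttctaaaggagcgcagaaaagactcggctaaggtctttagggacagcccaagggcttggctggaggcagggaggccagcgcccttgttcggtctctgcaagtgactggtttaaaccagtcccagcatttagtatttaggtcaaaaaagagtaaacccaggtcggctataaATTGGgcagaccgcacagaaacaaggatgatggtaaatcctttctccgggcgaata
Med13l (chr5:118560469-118560718, plus strand): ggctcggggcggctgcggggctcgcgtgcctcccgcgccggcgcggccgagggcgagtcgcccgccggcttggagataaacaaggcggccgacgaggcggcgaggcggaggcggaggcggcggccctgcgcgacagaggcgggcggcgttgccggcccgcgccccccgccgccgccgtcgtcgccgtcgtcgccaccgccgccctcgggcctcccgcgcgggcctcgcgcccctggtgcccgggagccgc
The Med19 window held 5 such boxes, beginning 235, 194, 153, 62 and 9 bases before the start. Among 32851 promoters of 300 bases (250 before and 50 after the start) in the same table, 37.4% held at least 1 CCAAT box and 0.271% held at least 5. Of the 28 members found in the table, 11 (39.3%) held at least 1, and no other member held as many as Med19. Med28 had 1 box, 56 bases before its start, and Med13l had none. The windows also differed in composition: G and C made up 45% of the Med19 window, 51.7% of that of Med28 and 84.7% of that of Med13l, which held 4 GC boxes (GGGCGG, present at least 4 times in 5.49% of promoters). Of the other motifs searched on both strands, Med19 held 1 ETS core (CCGGAA, in 14.9% of promoters) and 1 YY1 motif (AAGATGG, in 6.34%), which share 2 bases. It held no forkhead motif (TGTTTAC, in 3.65%) and no CRE core (TGACG, in 20.8%). These matches describe letters in a window and say nothing about which factor was bound.

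Libraries labelled eWAT held 6199586 to 14596745 reads assigned to genes and quadriceps libraries 6730219 to 14993394. All 8 fast-fibre markers were detected in quadriceps, with a summed level of 142710 to 226495 CPM (each gene's reads scaled to a common library total). Marker sums use plain library totals, and the levels of single genes below also use trimmed-mean factors. Those factors were set within each tissue, so CPM of single genes cannot be compared between tissues. Levels per kilobase of exon use factors set over all 39 libraries. The eWAT labels stood apart from their markers. In 13 of the 19 eWAT libraries, 8 genes of the epididymal epithelium summed to 16653 to 54013 CPM and 8 adipocyte markers had a median sum of 2209 CPM; in the other 6, called epididymis-poor below, these were 5.66 to 38.8 CPM and 37840 CPM. Epididymis-rich libraries were 4 of 5 in HFD fasted, 3 of 6 in CD fasted, 2 of 4 in HFD fed and 4 of 4 in CD fed mice. A single epididymis-poor HFD fasted library had 117421 CPM of hepatocyte markers and 1622 CPM of adipocyte markers, and an epididymis-poor CD fasted one had 27548 CPM of hepatocyte markers. Among epididymis-rich libraries, the first HFD fasted one had 10827 CPM of spermatid markers and the first CD fed one 2133 CPM. The dispersion between libraries was wide in eWAT (biological coefficient of variation 0.779) and narrow in quadriceps (0.203). The part of the mixed markers in that spread was not tested.

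Med19 encodes a middle-module subunit near the junction with the kinase module, and in mice it is needed to keep white adipose tissue. It lies on GRCm38 chromosome 2, 84678402 to 84688215, plus strand (ENSMUSG00000027080). In quadriceps its level in the 6 HFD fasted libraries was 3.97, 3.83, 4.60, 2.59, 3.83 and 3.79 CPM, and in the 6 CD fasted libraries 2.19, 1.94, 1.71, 1.27, 1.22 and 2.57 CPM. In the 4 HFD fed libraries it was 5.31, 3.71, 5.60 and 6.71 CPM, and in the 4 CD fed libraries 3.82, 2.76, 2.94 and 3.59 CPM. All fasted libraries of the HFD arm lay above all fasted libraries of the CD arm, whereas in fed mice the lowest HFD library fell inside the CD range. These levels rest on 14 to 77 reads per library in the HFD arm and 9 to 42 in the CD arm.

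**Figure D1:**
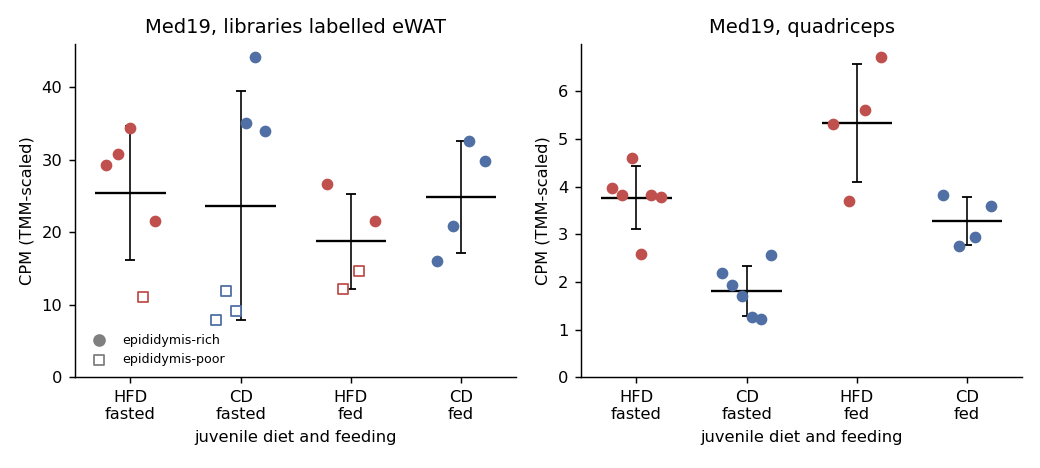
Med19 level in every library by juvenile diet and feeding, in CPM, with libraries labelled eWAT on the left and quadriceps on the right on axes of different range. CPM were scaled within each tissue, so levels cannot be compared between the panels. Points are libraries, the line is the group mean and the bar its SD, red is juvenile HFD, blue is CD, and open squares are epididymis-poor eWAT libraries; the 6 HFD fasted quadriceps libraries, at 2.59 to 4.60 CPM, sit above the 6 CD fasted ones at 1.22 to 2.57 CPM.

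Averaged over feeding states, Med19 was 4.39 ± 1.18 CPM in the HFD arm and 2.40 ± 0.899 CPM in the CD arm of quadriceps (SD, n = 10 each). The log2 difference was 0.87 ± 0.16 (SE). Because Med19 was chosen on its diet difference, the SE here and within fasted or fed mice describes spread and is no test. Within fasted mice the log2 difference was 1.03 ± 0.22, with 3.77 ± 0.654 CPM after HFD and 1.82 ± 0.526 CPM after CD (SD, n = 6 each). Within fed mice it was 0.71 ± 0.24, with 5.33 ± 1.24 CPM after HFD and 3.28 ± 0.509 CPM after CD (SD, n = 4 each). The interaction of diet and fasting was 0.32 ± 0.32 and did not pass the test (edgeR quasi-likelihood, adjusted p = 1.0). Leaving out any 1 quadriceps library gave 0.81 to 0.94 for the averaged diet difference, again a description because Med19 was chosen on it. In bulk tissue, fewer cells of a type and less RNA per cell cannot be told apart, and that holds for every level in this report.

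None of the other 31 members tested in quadriceps passed the threshold of an adjusted p of 0.05 for juvenile diet; Med12l, with 0 to 12 reads per library, was not tested. The background was almost as empty, with 0.0246% of 12213 genes called (0.00819% higher and 0.0164% lower), so nothing is read from that count. At an unadjusted p of 0.05, Med28 (log2 difference -0.25 ± 0.10) and Med8, a head subunit (0.27 ± 0.13), were the 2 members below it, and neither DESeq2 nor limma voom called any of the 31.  Of the 31 differences, 17 were positive and 14 negative, and 24 lay within 0.2 of zero on the log2 scale. Their median was 0.035, and that of all genes tested was 0.011. The largest were those of Ccnc at 0.41 (95% interval -0.13 to 0.95) and Med21, a middle subunit, at 0.32 (-0.35 to 0.99), both with wide intervals. The backbone gene Med14 gave 0.11 ± 0.09. Other genes of the middle module ranged from Med26 at -0.22 ± 0.12 and Med7 at -0.20 ± 0.14, through Med1 at 0.00 ± 0.10 and Med10 at 0.04 ± 0.15, to Med31 at 0.15 ± 0.22 and Med21. Within fasted mice alone and within fed mice alone, again 0 of these 31 were called, with 1 below an unadjusted p of 0.05 in each, against 0% and 0.00819% of all genes called.

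**Figure D2:**
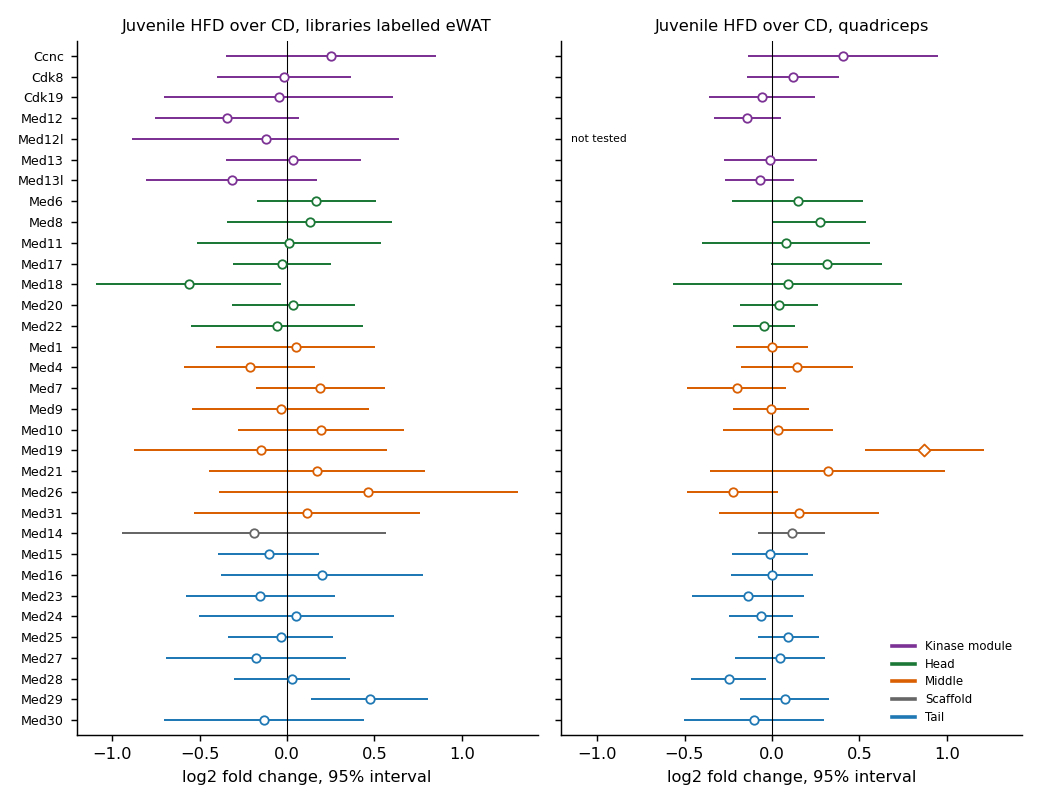
Log2 difference of juvenile HFD over CD, averaged over feeding states, for each member in libraries labelled eWAT on the left and quadriceps on the right, with 95% intervals and coloured by module. Open circles did not pass an adjusted p of 0.05, and the diamond marks Med19 in quadriceps, which is shown without a test. It sits at 0.87, and the next largest quadriceps value is that of Ccnc at 0.41. Med19 was chosen on this difference, so its rank and interval are no test.

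Med19 overlaps neighbours on the opposite strand at both ends. Tmx2, a thioredoxin-related membrane protein gene (2:84671316-84679140, minus strand), shares 19 exonic bases with it. Zdhhc5, a palmitoyltransferase gene (2:84687970-84715180, minus strand), shares 246. Together these make up 265 of its 2059 exonic bases (12.9%), and since the strand setting of the counting is not given in the sources used here, reads there cannot be assigned to 1 gene. For juvenile diet in quadriceps, the log2 difference was -0.01 ± 0.12 for Tmx2 (95% interval -0.24 to 0.23) and 0.01 ± 0.08 for Zdhhc5 (-0.15 to 0.17). The part of shared reads in the Med19 levels was not tested. Other members have such overlaps as well, 15 of 33 sharing exonic bases with another gene. Med10 is the extreme, with 4168 of its 4491 exonic bases shared with Gm26819, so its counts are uncertain.

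Several members passed the test for fasting in muscle. Averaged over juvenile diets, 8 of the 32 tested members changed in quadriceps (25%), which was below the 37.6% of all genes that changed. Med15, Med13l, Med13, Med12, Med17 and Med25 rose, and Med28 and Med19 fell. Calls in the upward direction made up 6 of 32 members against 19.2% of all genes, and calls in the downward direction 2 of 32 against 18.4%. The median log2 difference was 0.086 over the members and -0.019 over all genes tested. All 8 calls remained under DESeq2, where 38.6% of all genes were called. Limma voom called 10 members, where 39.3% of all genes were called. In 1 fit with the eWAT libraries, whose spread is wider, 3 of the 8 kept their calls (Med15, Med17 and Med28), where 9.30% of all genes were called. Med19 gave -0.71 in that fit (edgeR, adjusted p = 0.0886).

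In the kinase module, 3 of the 6 tested genes rose and none fell, where 19.2% of all genes rose and 18.4% fell; nothing is read from a count over so few genes. Med13l, which with Med13 forms the link between the kinase module and the core, gave 43.3, 40.8, 31.4, 38.1, 36.5 and 33.0 CPM in HFD fasted and 39.4, 38.9, 45.3, 44.8, 40.6 and 32.9 CPM in CD fasted libraries. It gave 27.3, 36.4, 25.9 and 20.3 CPM in HFD fed and 25.7, 30.01, 28.1 and 27.9 CPM in CD fed libraries. A single HFD fed library, at 36.4 CPM, reached into the fasted range. The log2 difference was 0.48 ± 0.10 (edgeR, adjusted p = 0.000191), from means of 38.7 ± 4.63 CPM fasted (SD, n = 12) and 27.7 ± 4.52 CPM fed (n = 8).

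Its paralog Med13, whose protein in mouse heart takes part in the control of whole-body energy use, averaged 25.6 ± 5.76 CPM fasted and 18.3 ± 2.85 CPM fed, a log2 difference of 0.48 ± 0.13 (edgeR, adjusted p = 0.00411). Fasted libraries ran from 16.1 to 37.8 CPM with a median of 27.1, and fed ones from 13.9 to 23.3 CPM with a median of 17.9, so the groups overlapped at the low end of the fasted range. Med12, which activates the kinase through cyclin C, averaged 38.5 ± 4.53 CPM fasted and 30.5 ± 4.93 CPM fed, a log2 difference of 0.34 ± 0.09 (edgeR, adjusted p = 0.00462). The catalytic subunits and their cyclin did not pass the test. Cdk8 gave a log2 difference of 0.16 ± 0.13, Cdk19 of -0.21 ± 0.15 and Ccnc of -0.39 ± 0.26.

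**Figure D3:**
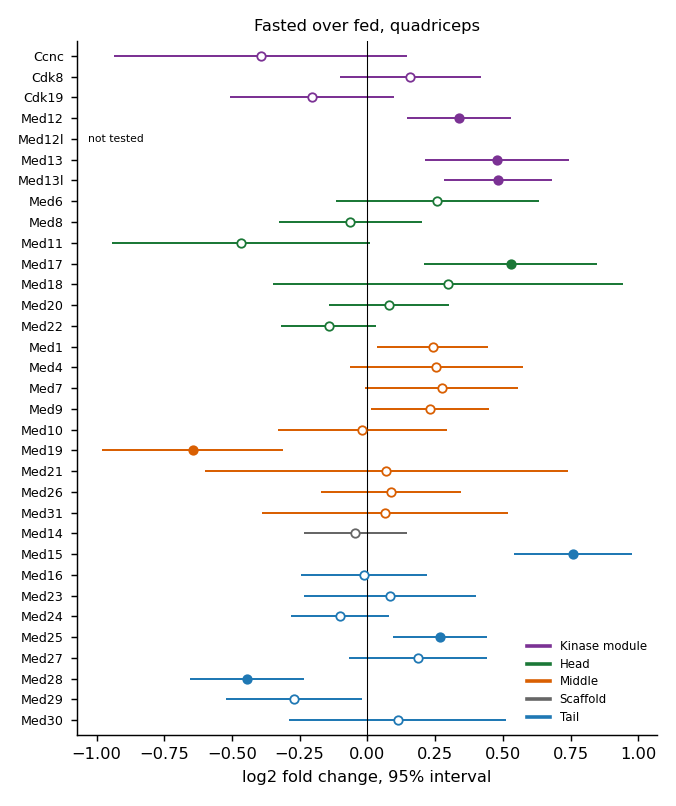
Log2 difference of fasted over fed quadriceps, averaged over juvenile diets, for each member with its 95% interval, coloured by module. Filled circles passed an adjusted p of 0.05 in edgeR and open circles did not; 6 filled circles lie to the right of zero, led by Med15 at 0.76, and those of Med19 at -0.65 and Med28 at -0.45 lie to the left.

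The tail held the largest rise of the family. Med15, the tail subunit that binds the sterol regulator SREBP, gave 31.96, 33.6, 28.4, 37.5, 30.1 and 26.8 CPM in HFD fasted and 28.0, 29.3, 32.9, 39.3, 29.8 and 23.7 CPM in CD fasted libraries. It gave 21.3, 21.4, 14.2 and 14.5 CPM in HFD fed and 18.4, 22.0, 16.5 and 17.7 CPM in CD fed libraries. Every fasted library lay above every fed one. Means were 31.0 ± 4.40 CPM fasted (SD, n = 12) and 18.2 ± 3.10 CPM fed (n = 8), a log2 difference of 0.76 ± 0.10 (edgeR, adjusted p = 1.33e-06). Med25, a tail subunit that binds several activation domains, averaged 65.0 ± 6.60 CPM fasted and 54.1 ± 7.12 CPM fed, a log2 difference of 0.27 ± 0.08 (edgeR, adjusted p = 0.0122).

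Med28, also assigned to the tail side of the complex, went the other way. It gave 13.0, 9.63, 11.9, 13.7, 12.6 and 11.9 CPM in HFD fasted and 12.5, 12.2, 12.1, 13.4, 16.7 and 14.4 CPM in CD fasted libraries. It gave 13.4, 12.8, 17.2 and 18.7 CPM in HFD fed and 18.7, 24.7, 17.5 and 17.0 CPM in CD fed libraries. In the CD arm all fed libraries were higher than all fasted ones, and in the HFD arm the ranges overlapped. The log2 difference was -0.45 ± 0.10 (edgeR, adjusted p = 0.000876). The other 6 tail genes did not pass, with the nearest being Med29 at -0.27 ± 0.12 (edgeR, adjusted p = 0.0779).

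Among 7 head genes, 1 rose: Med17, a large head subunit that many activators contact, averaged 7.77 ± 1.65 CPM fasted and 5.42 ± 1.45 CPM fed, a log2 difference of 0.53 ± 0.15 (edgeR, adjusted p = 0.00748). Of 9 middle genes, Med19 alone passed. It fell by 0.65 ± 0.16 on the log2 scale (edgeR, adjusted p = 0.00222), to 2.79 ± 1.17 CPM fasted (SD, n = 12) against 4.30 ± 1.41 CPM fed (n = 8). The nearest other middle genes were Med1, the main contact of nuclear receptors, at 0.24 ± 0.10 (edgeR, adjusted p = 0.0532) and Med9 at 0.23 ± 0.10 (edgeR, adjusted p = 0.0828). The backbone gene Med14 gave -0.04 ± 0.09, with a 95% interval of -0.23 to 0.14.

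**Figure D4:**
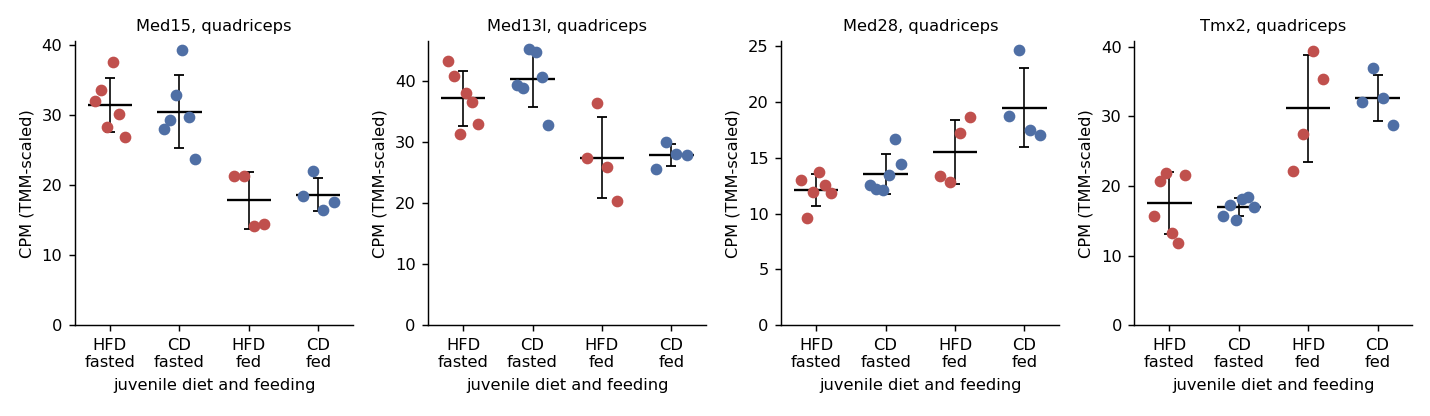
Levels of Med15, Med13l, Med28 and the Med19 neighbour Tmx2 in every quadriceps library, in CPM, by juvenile diet and feeding; each panel has its own range starting at 0. Points are libraries, the line is the group mean, the bar its SD, red is juvenile HFD and blue is CD; every fasted library of Med15 (23.7 to 39.3 CPM) lies above every fed one (14.2 to 22.0 CPM).

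The fasting responses after juvenile HFD and after CD were then compared directly, and 0 of 32 members passed that test by edgeR, limma voom or DESeq2, with 1 below an unadjusted p of 0.05 and 0% of all genes called by edgeR. After juvenile HFD, 4 of 32 members were called, against 21.4% of all genes (11.7% higher and 9.7% lower): Med15 rose by 0.81 ± 0.15, Med13l by 0.43 ± 0.13, Med13 by 0.53 ± 0.18 and Med12 by 0.37 ± 0.13 on the log2 scale. After CD, 5 were called, against 22.4% of all genes (12% higher and 10.4% lower): Med15 rose by 0.71 ± 0.15, Med13l by 0.53 ± 0.14 and Med17 by 0.62 ± 0.22, while Med28 fell by 0.53 ± 0.14 and Med19 by 0.81 ± 0.24. Med19 after juvenile HFD gave -0.48 ± 0.22 (edgeR, adjusted p = 0.114), and limma voom placed it past the threshold at -0.52 (adjusted p = 0.0387). Limma voom also called Med28 as lower after juvenile HFD, where it called 25.1% of all genes. These calls within 1 diet arm rest on few fed libraries. Without the fourth HFD fed library only 1 member was called after HFD, without the first HFD fasted or the third HFD fed library 2 were, and without the first or the second CD fed library 3 were called after CD. Of the 20 fits that left out 1 library, Med17 after CD lost its call in 8 (0.40 without the second CD fed library), and after HFD Med12 lost it in 6, Med13 in 5 and Med13l in 3. Med19 after CD lost it in 1, at -0.72 without the first CD fed library (edgeR, adjusted p = 0.0538), and Med28 in 1, at -0.39 without the second (edgeR, adjusted p = 0.067). Med15 lost it in none. In limma voom, Med17 after CD (0.61, adjusted p = 0.061) and Med13 after HFD (0.33, adjusted p = 0.176) also missed the threshold, as did Med17 without Gm42418 (edgeR, adjusted p = 0.0507) and Med12 with no filter on low counts (edgeR, adjusted p = 0.0631). The 8 calls averaged over diets held whichever library was left out.

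Marker levels of other cells in the same libraries are given by feeding without a test, and the fasted and fed ranges overlapped for each list named. The summed level of 4 fibroblast markers was 115 to 433 CPM in fasted quadriceps (median 254) and 363 to 599 CPM in fed (median 492). Of the fasted libraries, only the fifth HFD one, at 433 CPM, reached the fed range. The sum of 8 adipocyte markers was 147 to 1063 CPM fasted (median 252) and 123 to 304 CPM fed (median 144). Macrophage markers gave 17.8 to 92.0 CPM fasted and 29.8 to 78.7 CPM fed, and endothelial markers 106 to 237 CPM fasted and 141 to 239 CPM fed. Fast-fibre markers gave 142710 to 206961 CPM fasted and 164553 to 226495 CPM fed, and none of the 12 fasted or 8 fed libraries exceeded 1.45 CPM for epididymal markers. Their part in the Mediator differences was not tested. By juvenile diet the fibroblast sums overlapped widely, at 115 to 592 CPM after HFD and 208 to 599 CPM after CD. Beside the fall of Med19, its neighbour Tmx2 fell by 0.88 ± 0.11 in fasted quadriceps (edgeR, adjusted p = 3.93e-07), to 17.2 ± 3.14 CPM against 31.9 ± 5.56 CPM fed. Zdhhc5 gave -0.19 ± 0.08 (edgeR, adjusted p = 0.0537).

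Genes of the machinery that Mediator works with were also followed on fasting in quadriceps, where 37.6% of all genes were called (19.2% higher and 18.4% lower) and the median over all genes was -0.019. Of 13 tested subunits of RNA polymerase II, none rose and 2 fell (15.4% called), Polr2m by 0.32 ± 0.08 and Polr2f by 0.36 ± 0.14 on the log2 scale, with a list median of -0.067. Of 31 general transcription factor genes, 10 rose and 2 fell (38.7% called), with a median of 0.013. The TFIID subunit genes Taf7 (1.34 ± 0.22) and Taf8 (0.87 ± 0.10) and the TFIIA gene Gtf2a1 (0.86 ± 0.13) were among those that rose, and Taf2 fell by 0.43 ± 0.12 and Gtf2f1 by 0.36 ± 0.11. Of 24 pausing and elongation factor genes, 11 rose and 3 fell (58.3% called), with a median of 0.16. Ell (0.54 ± 0.11) and Aff1 (0.37 ± 0.08) rose, and Leo1 fell by 0.66 ± 0.09, Eaf1 by 0.65 ± 0.12 and Hexim1, an inhibitor of the elongation kinase P-TEFb, by 0.45 ± 0.09.

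Of 19 transcription factors known to contact Mediator, 4 rose and 5 fell (47.4% called, against 37.6% of all genes), with a median of -0.05. Srebf2, the sterol regulator gene, fell by 0.77 ± 0.10, Smad3, of the TGF-beta pathway, by 1.20 ± 0.09 and Esr1, the oestrogen receptor, by 0.82 ± 0.11. Pparg, the adipogenic nuclear receptor, rose by 0.93 ± 0.30, Elk1, an ETS factor that contacts Med23, by 0.36 ± 0.12 and Rxrb by 0.31 ± 0.07. The adipocyte marker sums given above varied in the same libraries, and their part in the Pparg difference was not tested. For juvenile diet, 0 genes of any of the 4 lists were called, and 1, 1, 1 and 0 lay below an unadjusted p of 0.05.

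In libraries labelled eWAT, 0 of 33 members were called by edgeR for fasting or for juvenile diet, averaged or within arms, and 0% of 16603 genes were called in each of these 6 comparisons. For the averaged contrasts, 2 members lay below an unadjusted p of 0.05 in each, and within arms 0 to 6 did. In these comparisons DESeq2 called 0 to 3 members and up to 7.04% of all genes, and limma voom 0 to 1 members and up to 0.807% of all genes. The largest averaged fasting value was that of Med18, a head subunit, at 1.04 ± 0.25 (edgeR, adjusted p = 0.514). Med18 was 3.78, 5.45, 5.56, 4.35 and 6.18 CPM in HFD fasted and 8.21, 10.3, 10.5, 6.46, 7.44 and 7.34 CPM in CD fasted libraries. It was 4.96, 1.399, 1.496 and 3.21 CPM in HFD fed and 3.42, 4.49, 3.39 and 3.26 CPM in CD fed libraries. DESeq2 called Med18 for fasting averaged over diets and within each diet. For the interaction of diet and fasting, edgeR called 0 of 33 members against 8.41% of all genes (2.6% in the positive and 5.82% in the negative direction), 6 members lay below an unadjusted p of 0.05, and DESeq2 called Med7, with 13.0% of all genes.

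Single libraries carried the widest values in eWAT. The HFD fasted library with 10827 CPM of spermatid markers had 122.7 CPM of Med26, the subunit that recruits elongation factors, while the other 18 libraries had 8.63 to 38.8 CPM. The value of 38.8 CPM was that of the first CD fed library, which had 2133 CPM of spermatid markers. The HFD fasted library also had 187.6 CPM of Med16. The Med26 value for juvenile diet in fasted mice, 1.54 ± 0.53 (edgeR, adjusted p = 0.124), includes it.

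Med19 in eWAT was 29.3, 30.8, 34.3, 11.1 and 21.5 CPM in HFD fasted and 7.92, 11.9, 9.09, 35.1, 44.2 and 33.9 CPM in CD fasted libraries. It was 26.7, 12.2, 14.6 and 21.5 CPM in HFD fed and 16.1, 20.9, 32.6 and 29.8 CPM in CD fed libraries. These values separated by epididymal markers: the 13 epididymis-rich libraries had 16.1 to 44.2 CPM and the 6 epididymis-poor ones 7.92 to 14.6 CPM, with no overlap. Med19 was not alone in this. Med24 (at least 56.3 CPM in rich and at most 43.8 CPM in poor libraries), Med9, Med28 and Med23 did not overlap either. The share of all genes that separated in this way was not counted. For juvenile diet the log2 difference was -0.15 ± 0.34 averaged (edgeR, adjusted p = 1.0), 0.10 ± 0.44 in fasted and -0.41 ± 0.52 in fed mice. The averaged 95% interval was -0.87 to 0.57, and the difference between tissues in the diet effect was not tested. For fasting the difference was 0.18 ± 0.34 averaged over diets (edgeR, adjusted p = 0.941). With the epididymis-rich libraries alone it was 0.47, and the averaged diet difference was -0.19.

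The labels do not say whether both tissues came from the same mice, so tests between tissues treated all libraries as unpaired. Set against quadriceps, 23 of 33 members differed in eWAT, where 83% of 17083 genes did. Of these, 13 were higher and 10 lower in eWAT, against 54.9% and 28.1% of all genes, and the median log2 difference was 0.02 over the members and 0.64 over all genes. The higher set was led by Med12l, the paralog of Med12 (2.77 ± 0.29), Med19 (1.53 ± 0.19), Med11 (1.38 ± 0.18) and Med22 (1.37 ± 0.12), the last pair both of the head. It also held Med18, Med10, Med28, Cdk8, Ccnc, Med30, Med23, Med17 and Med15, at 1.15 down to 0.20. The lower set was led by Cdk19 (-1.70 ± 0.17), Med25 (-0.98 ± 0.08), Med24 (-0.97 ± 0.14) and Med27 (-0.81 ± 0.13), and it went on with Med13, Med1, Med13l, Med29, Med4 and Med20. The 6 epididymis-poor libraries come from 3 of the 4 groups, which weighed equally in a fit without the other eWAT libraries. In that fit the HFD fasted group held 1 eWAT library, the one with 117421 CPM of hepatocyte markers. Effect sizes alone are therefore given for it. Med19 was 0.52 higher in these eWAT libraries than in quadriceps, Med15 gave -0.27 and Med23 -0.27. Some small differences rested on single libraries. Med15 missed the threshold without the fourth HFD fasted (0.16) or the first HFD fed eWAT library (0.16), Ccnc without the second HFD fed eWAT library (0.44), and Med20 without that library (-0.19) or the third HFD fed quadriceps library (-0.20). Med4 missed it in 21 of the 39 fits that left out 1 library, at -0.26 to -0.21.

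Per kilobase of exon, Med9 was the most abundant member in quadriceps, at a median of 12.6 CPM per kb, followed by Med24, then Med29 and Med25 at 11.9 each. Their ranges over libraries overlapped. Med12l was the least abundant in each set of libraries, at 0.35 CPM per kb in epididymis-rich, 0.57 in epididymis-poor and 0.06 in quadriceps libraries. Ccnc and Med18 were also low in quadriceps, at 0.71 and 0.68. Med19 ranked 4 of 33 in epididymis-rich libraries at 9.34 CPM per kb, 12 in epididymis-poor libraries at 3.595 and 24 in quadriceps at 2.71. Med14, the backbone, stood at 4.11 in epididymis-rich and 1.25 in epididymis-poor libraries, and at 3.53 in quadriceps.

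**Figure D5:**
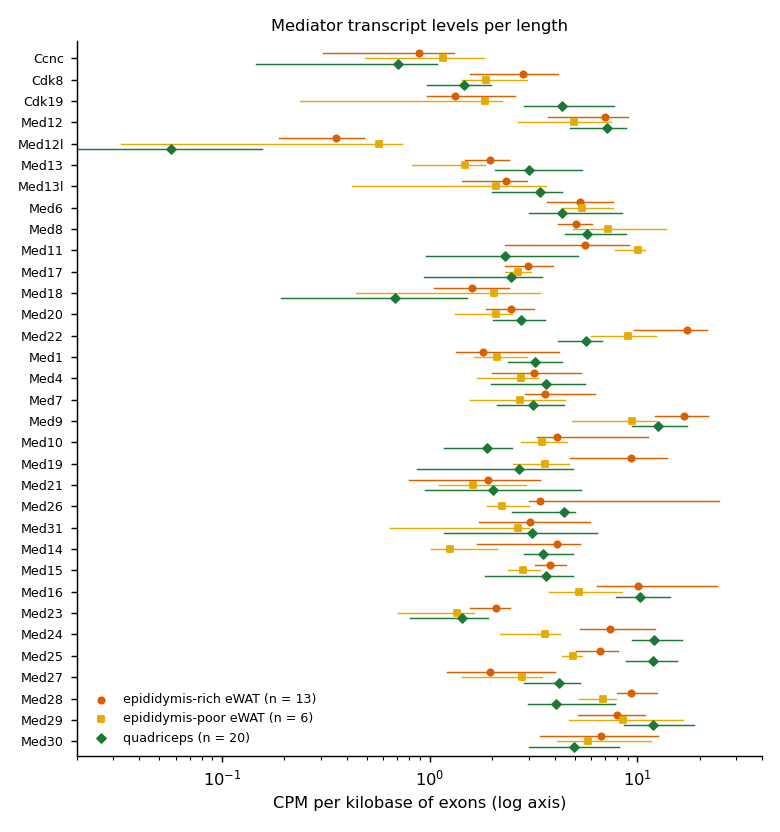
Level of each member in CPM per kilobase of exon on a log axis, in epididymis-rich eWAT, epididymis-poor eWAT and quadriceps libraries; points are medians and lines run from the lowest to the highest library, cut at the start of the axis (Med12l had 0 in a quadriceps library). Med12l is the lowest in each set, and Cdk19 has medians of 1.32 in epididymis-rich and 1.85 in epididymis-poor libraries against 4.36 in quadriceps.

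Cdk19 and Cdk8 are alternative catalytic subunits, and Cdk19 was lower and Cdk8 higher in eWAT than in quadriceps. The per-length log2 ratio of Cdk19 to Cdk8 was -0.84 ± 0.99 in eWAT (SD, n = 19) and 1.63 ± 0.40 in quadriceps (SD, n = 20), where every library lay between 0.87 and 2.34. It was -0.99 ± 0.66 in the 13 epididymis-rich and -0.51 ± 1.52 in the 6 epididymis-poor libraries. Among the epididymis-poor libraries, the HFD fasted one with 117421 CPM of hepatocyte markers had -3.56. The others lay between -0.29 and 0.40. Within quadriceps, the log2 count ratio of Cdk19 to Cdk8 was 0.72 ± 0.389 in fasted (SD, n = 12) and 1.13 ± 0.286 in fed libraries (SD, n = 8), a difference of -0.40 (exact permutation test within diet, two-sided, p = 0.0219, adjusted over the 6 ratios tested p = 0.131). It passed the threshold only when the first CD fasted library was left out, at -0.48 (exact permutation, adjusted p = 0.0213). The ratio of Med13l to Med13 differed by 0.03 and that of Med12l to Med12 by 0.19 between fasted and fed quadriceps (exact permutation, adjusted p = 0.871 for each). In eWAT the 3 differences were -0.09, -0.17 and -0.55 in the same order (exact permutation, adjusted p of 0.871, 0.833 and 0.704).

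The fasting response itself was compared between tissues in a fit of all 39 libraries. Med15 was the 1 member of 33 whose response differed, by -0.80 ± 0.16 in eWAT relative to quadriceps (edgeR, adjusted p = 0.0034), where 2.73% of all genes differed (0.942% in the positive and 1.79% in the negative direction). Med15 averaged 63.0 ± 10.5 CPM in fasted (n = 11) and 67.8 ± 15.0 CPM in fed eWAT libraries (SD, n = 8), and its averaged fasting difference within the eWAT fit was -0.09 ± 0.13 (edgeR, adjusted p = 0.923). Its median was 66.8 CPM fasted and 78.6 CPM fed in epididymis-rich libraries, and 51.8 CPM fasted and 47.0 CPM fed in epididymis-poor ones. These CPM are scaled within eWAT. On the scaling shared by both tissues, the Med15 median was 3.62 CPM per kb in eWAT and 3.62 in quadriceps libraries. Med19 gave 0.86 ± 0.37 (edgeR, adjusted p = 0.233). It passed the threshold at 1.08 with the epididymis-rich libraries alone (edgeR, adjusted p = 0.00673), where 4.84% of all genes were called, and at 0.86 in limma voom (adjusted p = 0.0400), where 11.2% were. The response of Tmx2 also differed between tissues, by 0.73 ± 0.17 (edgeR, adjusted p = 0.0122).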

How the data were processed

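Poly-A RNA libraries were sequenced on an Ion Torrent Proton after 14 cycles of PCR, per the labels' protocols. The deposited files hold raw read counts per Ensembl gene, and TopHat2 2.1.0, Bowtie2 2.2.5, HTSeq 0.6.0 and GRCm38 are named in the submitters' processing notes. Their roles, the annotation release and the strand setting were not given in the sources used here. The 5 summary lines of each file were left out of library sizes; assigned reads were 18.4% to 39.9% of those listed. Symbols and positions came from GENCODE M21, which named 44585 of 45232 identifiers, and exonic length is the union of exons.

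Groups follow the labels. Each tissue was fitted alone in edgeR 4.0.16 (R 4.3.3): filterByExpr by group, trimmed-mean scaling, robust quasi-likelihood tests of group-mean contrasts, two-sided, with Benjamini-Hochberg adjustment over all genes tested and a threshold of 0.05. Comparisons between tissues used all 39 libraries. Paralog ratios were log2 ratios of read counts, with a prior count of 0.5 added to each count. Exact permutation tests enumerated 44100 label orders in quadriceps and 26460 in eWAT, with p-values adjusted in scipy 1.17.1. Alternatives were DESeq2 1.42.0, limma 3.58.1 voom with quality weights, relative-log scaling, no filter, all libraries in 1 fit, quadriceps without Gm42418, a prior count of 2, eWAT split at 1000 CPM of epididymal markers, and leaving out each library. Fits were tested on simulated data.

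All called members are named. From each other list up to 3 genes per direction are named, by smallest p, and genes overlapping or within 50 kb of Med19 may be named. A gene that this rule would name is not reported here. The members, lists and tests were chosen with earlier results of these data known. Precision follows depth, and p-values cover spread between libraries.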

Additional observations from a re-analysis of the deposited data

Results flagged for a closer look

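Of 88 groups of 4 to 6 libraries examined for a library far from the rest, 4 held one, and about 4.4 would by chance at 1 in 20. In quadriceps, Med25 was 76.4 CPM in the fifth CD fasted library, where the other 5 had 56.9 to 64.0 CPM. In eWAT, Med13 was 13.9 CPM in the fourth HFD fasted library, the one with hepatocyte markers, where the other 4 had 33.8 to 39.7 CPM. Also in eWAT, Med13l was 86.9 CPM in the second CD fasted library, where the other 5 had 48.2 to 60.3 CPM, and the log2 count ratio of Cdk19 to Cdk8 was -1.19 in the first CD fed library, where the other 3 had -2.19 to -2.08. The fasting response of Med15 differed between tissues, by -0.80 on the log2 scale in eWAT relative to quadriceps. What set these values apart was not tested.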

How the results depend on the processing

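No paired analysis was possible because the labels give no replicate numbers shared between groups. With all 39 libraries in 1 fit, which shares the wide eWAT spread, quadriceps fasting called 3 members averaged over diets (Med15, Med17 and Med28), 1 after HFD and 2 after CD, with 9.30%, 2.79% and 2.57% of all genes. It called in eWAT 3 for fasting after HFD, 4 for diet in fasted mice and 5 for the interaction, with 11.97%, 16.1% and 22.0% of all genes. DESeq2 called in eWAT 1 member for fasting averaged over diets, 3 after HFD, 1 after CD, 2 for diet in fasted mice and 1 for the interaction, with 0.595%, 6.09%, 3.70%, 7.04% and 13.0% of all genes; limma voom called 1 for fasting after CD, with 0.807%. The difference between tissues in fasting response was called for 4 members with epididymis-rich libraries only and 5 in limma voom, with 4.84% and 11.2% of all genes. With epididymis-rich libraries only, Med19 in eWAT turned to 0.62 for fasting after CD, -0.34 for diet in fasted mice and -0.30 for the interaction, and the Cdk19 to Cdk8 difference to 0.34. With epididymis-poor libraries only, Med15 and Med23 turned to -0.27 each between tissues.

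Leaving out 1 library at a time gave 8 to 10 members called for averaged quadriceps fasting, 1 to 4 after HFD, 3 to 6 after CD, 20 to 25 between tissues, 0 to 1 for the eWAT interaction (1 without the fourth HFD fasted library) and 1 to 2 for the difference in fasting response (2 without the fourth or the fifth eWAT HFD fasted library). Shares of all genes are not given for these fits, so nothing is read from the size of these counts. Med19 in eWAT ranged over -0.35 to 0.11 for fasting after CD and -0.076 to 0.38 for diet in fasted mice. Paralog differences ranged over -0.48 to -0.34, -0.039 to 0.16 and -0.27 to 0.46 in quadriceps for Cdk19 to Cdk8, Med13l to Med13 and Med12l to Med12, and over -0.35 to 0.18, -0.23 to -0.10 and -0.78 to -0.39 in eWAT. The fasting difference between tissues could not be had from epididymis-poor libraries, where a group has none. Limma voom moved the median of all genes between tissues to 0.49 and epididymis-poor libraries moved it to 0.31. Med19 counts of 9 to 77 reads in quadriceps limit its precision. The causes of these shifts were not tested.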
